A study of Mus musculus with 6 samples.

Results

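The genes described here make, carry, receive and restrain the transforming growth factor beta (TGF-beta) signal in mouse regulatory T (Treg) cells. They are 10 of the 18493 genes in the deposited table, found by symbol: the ligand Tgfb1, its surface carrier Lrrc32, the receptors Tgfbr1 and Tgfbr2, the signal carriers Smad2, Smad3 and Smad4, the inhibitor Smad7, and the repressors Ski and Skil. All 10 passed the filter on low counts. CD4+CD25+YFP+ cells were sorted from spleen and lymph node of female C57BL/6 mice aged 7 weeks, and their RNA was sequenced. The wild-type mice (WT, n = 3) were Foxp3cre/+, and the conditional knockout mice (cKO, n = 3) were Foxp3cre/+ TKTfl/fl, so both groups carried Cre. Cre is driven by Foxp3, which is X-linked, so these females are mosaics and the YFP gate takes the cells that use the Cre allele. Tkt encodes transketolase, an enzyme of the non-oxidative pentose phosphate pathway, and the question of the study was the dependence of Treg function on that pathway. The labels do not say if each library is 1 animal, and p-values here reflect the spread between libraries only.

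TGF-beta1 is made as a latent complex. In Treg cells the protein GARP, encoded by Lrrc32, holds this complex on the cell surface, and an integrin that contains the beta-8 chain releases the active ligand. The ligand binds the type II receptor (Tgfbr2), which recruits and phosphorylates the type I receptor (Tgfbr1). The type I receptor phosphorylates SMAD2 and SMAD3, which enter the nucleus with SMAD4. SMAD7, SKI and SnoN (encoded by Skil) restrain the pathway, and Smad7 and Skil are themselves known targets of it. TGF-beta supports the formation of Treg cells outside the thymus, and Treg cells in turn use it to restrain other T cells.

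None of the 10 genes passed edgeR's quasi-likelihood test of cKO against WT cells, with an adjusted p under 0.05 as the threshold for a call. Over all 12887 genes tested, 27 were called (0.210%), so no call among 10 genes is what that background gives. DESeq2 and limma-voom also called 0 of the 10, beside 1.37% and 0.147% of all genes tested. At an unadjusted p under 0.05 edgeR had 0, DESeq2 had 1 and limma-voom had 0. Over all genes tested, 7.69%, 6.55% and 7.88% were under that p with the 3 tools in that order. The median log2 fold change of the 10 was 0.03, beside 0.004 over all genes tested, with 6 values above 0 and 4 below. Their log2 fold changes ran from -0.12 for Smad3 to 0.24 for Tgfbr2. In counts simulated for the same comparison over 12698 genes, edgeR called 88 of 100 genes changed 2-fold and 99 of 100 changed 4-fold. There were 18 calls among unchanged genes. These rates describe the simulated counts only. In the deposited counts Tkt, at a log2 fold change of -1.41, was not called (edgeR adjusted p = 0.0516). How far the rates hold for the 10 genes was not tested. The 95% confidence intervals, each for 1 gene alone, reached at the widest from -0.69 to 0.56 for Skil, so none of the 10 intervals reached a 2-fold difference.

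Tkt itself stood at 126, 97.1 and 121 CPM (counts scaled to library size) in WT1 to WT3 and at 52.5, 44.8 and 31.9 CPM in cKO1 to cKO3. The cKO libraries all lay below the WT libraries (log2 fold change -1.41 ± 0.19 SE, edgeR adjusted p = 0.0516). Tkt was called lower in 7 of the 17 alternative settings, DESeq2 among them (adjusted p = 2.17e-10), and the adjusted p reached 0.217 at the highest. The libraries held 17180577 to 18215168 estimated reads. The Treg markers Foxp3 (log2 fold change 0.05 ± 0.16 SE) and Il2ra (0.01 ± 0.13 SE) were high in all 6 libraries. WT2 and cKO1 stood apart from the others: Tnfaip3, a feedback inhibitor of NF-kappaB, was at 4898 and 4612 CPM in them and at 1152 to 2332 CPM in the other 4. That difference runs across the groups and recurs below in several genes of the pathway. Fits without WT2 and cKO1 leave out libraries picked by such values, so SEs and p-values of those fits may be too small.

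**Figure D1:**
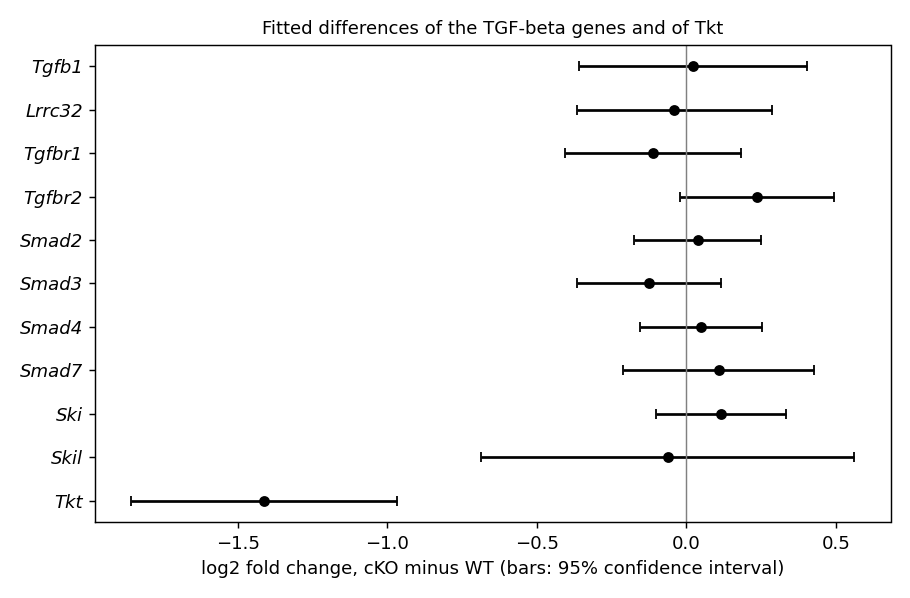
Fitted log2 fold change, cKO minus WT, of the 10 TGF-beta genes and of Tkt on the horizontal axis, with bars for the 95% confidence interval (3 libraries a group). The intervals of all 10 TGF-beta genes include 0, that of Tgfbr2 only just (-0.02 to 0.49), while that of Tkt lies wholly below 0.

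The 2 genes whose promoters are shown are the ligand, for its place at the start of the pathway, and Tgfbr2, the only one of the 10 whose groups did not overlap. RefSeq promoter windows on GRCm38.p6, of 250 bases before to 50 after a gene's start, were read for 5 of the 10 genes: Tgfb1, Tgfbr1 (2 starts), Tgfbr2, Smad3 and Ski. The Tgfb1 window is chr7:25686752-25687051 on the + strand and the Tgfbr2 window is chr9:116175314-116175613 on the - strand. Capitals mark the GC box GGGCGG, a binding site of Sp1 family factors, and the CCAAT box CCAAT, each on either strand.
Tgfb1: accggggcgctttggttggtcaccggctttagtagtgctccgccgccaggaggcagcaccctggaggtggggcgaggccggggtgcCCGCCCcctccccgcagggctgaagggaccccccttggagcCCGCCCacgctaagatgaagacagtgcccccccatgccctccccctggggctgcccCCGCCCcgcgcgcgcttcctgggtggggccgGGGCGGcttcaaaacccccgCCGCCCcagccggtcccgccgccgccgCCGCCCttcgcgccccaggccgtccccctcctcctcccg
Tgfbr2: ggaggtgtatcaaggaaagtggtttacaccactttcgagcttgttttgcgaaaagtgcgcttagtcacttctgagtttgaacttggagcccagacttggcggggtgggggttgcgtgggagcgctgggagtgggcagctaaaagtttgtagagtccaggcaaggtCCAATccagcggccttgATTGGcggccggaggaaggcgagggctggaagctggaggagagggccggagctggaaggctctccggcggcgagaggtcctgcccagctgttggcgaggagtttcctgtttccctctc

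The Tgfb1 window held 6 GC boxes and no CCAAT box, at a GC content of 77.0%. The Tgfbr2 window held 2 CCAAT boxes and no GC box, at a GC content of 59.0%. Over all 32851 windows, 35.7% held a GC box, 37.4% held a CCAAT box and the median GC content was 52.7%. Ski had 6 GC boxes, Smad3 had 2, and the upstream start of Tgfbr1 had 2. That start also had 2 CCAAT boxes, and the other start of Tgfbr1 had 1. The paired SMAD box GTCTAGAC, found in 0.213% of all windows, was in none of the 6 windows read. The single SMAD box CAGACA, found in 21% of all windows, had 1 match, at the other start of Tgfbr1, and none in the rest of the windows read. Those windows do not cover Smad7 and Skil, the known targets of the pathway, nor Smad2, Smad4 and Lrrc32. No window was found for Lrrc32 and Skil, while Smad2, Smad4 and Smad7 were left out of the reading. The presence of either SMAD box in those genes was therefore not examined. These matches describe the letters alone.

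Levels of different genes can be set side by side only per length, so the order below uses the deposited FPKM. Tgfb1 led at 105 to 172 FPKM over the 6 libraries, and its mean FPKM lay at the 96.8th percentile of the genes tested. Lrrc32 followed at 78.0 to 102 FPKM, below Tgfb1 in all 6 libraries. Ski (58.1 to 76.6 FPKM), Smad7 (57.9 to 74.6 FPKM) and Tgfbr2 (51.4 to 70.1 FPKM) came next, and their ranges overlapped each other. Skil lay at 30.5 to 57.0 FPKM and overlapped both its neighbours. Smad4, the common partner, lay at 25.9 to 31.1 FPKM, above Smad2 in all 6 libraries and with no overlap of their ranges. Smad2 (20.5 to 23.1 FPKM), Tgfbr1 (16.8 to 23.1 FPKM) and Smad3 (17.1 to 22.0 FPKM) came last and did not separate, and Smad3 lay at the 68.8th percentile. By mean FPKM, the ligand, its carrier, the type II receptor and the inhibitors thus lay above the signal carriers and the type I receptor.

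**Figure D2:**
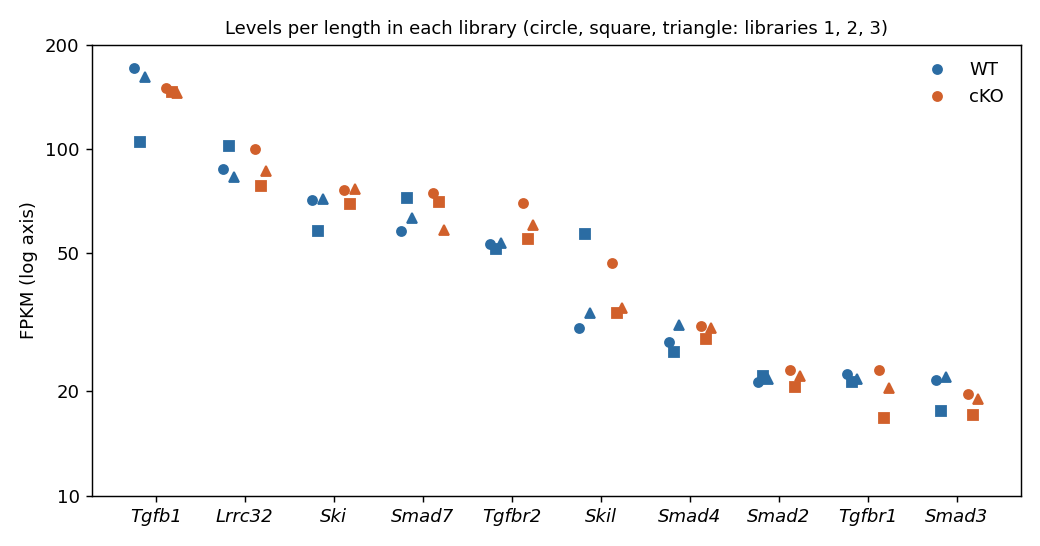
FPKM of the 10 genes on a log axis, ordered by their mean, with 1 point for each library (blue for WT, orange for cKO). Tgfb1 lies above Lrrc32 in all 6 libraries, and Smad2, Tgfbr1 and Smad3 share the lowest range, between 16.8 and 23.1 FPKM.

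The ligand was at nearly the same mean level in both groups but spread differently within them. Tgfb1 (Entrez 21803, chromosome 7, 25687002 to 25705077 in GRCm38.p6) stood at 367, 234 and 347 CPM in WT1 to WT3 and at 335, 317 and 311 CPM in cKO1 to cKO3. WT2 was the lowest of the 6 libraries and the other 2 WT libraries were the highest, so the groups overlapped. The means were 316 ± 71.8 and 321 ± 12.5 CPM (SD, n = 3), and the log2 fold change was 0.02 (95% interval -0.36 to 0.40; edgeR adjusted p = 0.994). The log2 fold change was -0.16 without WT2, -0.010 without cKO1 and -0.19 ± 0.06 (SE; edgeR adjusted p = 0.318) without both, so its sign turned with either of these libraries. The coefficient of variation over the WT libraries was 22.7%, at the 79.8th percentile of the genes tested, and over the cKO libraries 3.91%, at the 14.5th percentile. The other ligand genes were near the detection limit, with Tgfb3 at 0.845 to 1.61 CPM and Tgfb2 at no more than 8 estimated reads in any library.

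The carrier followed another course over the libraries. Lrrc32 (Entrez 434215, chromosome 7, 98489305 to 98501831) stood at 335, 409 and 319 CPM in WT and at 402, 302 and 331 CPM in cKO. WT2 and cKO1 were the highest libraries, and the groups overlapped over most of their range (355 ± 48.0 and 345 ± 51.6 CPM, SD, n = 3; log2 fold change -0.04, 95% interval -0.36 to 0.28). The log2 fold change was 0.07 without WT2 and 0.04 without cKO2. The FPKM ratio of Tgfb1 to Lrrc32 was 1.96, 1.03 and 1.95 in WT and 1.499, 1.88 and 1.69 in cKO, so WT2 alone had the 2 at nearly equal levels per length.

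Platelets also hold TGF-beta1 and carry GARP, and B cells and endothelial cells can express these genes, so markers of other cells were read in the same libraries. The 7 of 10 platelet markers in the table summed to 3.94 to 4.90 CPM in WT and 5.02 to 5.99 CPM in cKO, and 5 of the 7 were under 1 CPM in all libraries. Itga2b, the most abundant, stood at 2.60 ± 0.380 and 3.03 ± 0.136 CPM (SD, n = 3), and the platelet chemokine Pf4 had at most 2 estimated reads in a library. The 10 endothelial and stromal markers summed to 2.99 to 19.5 CPM in WT and 15.8 to 20.4 CPM in cKO, led by Col1a1, and the endothelial marker Cdh5 had at most 7 reads. The 10 B cell markers summed to 21.6 to 23.7 and 15.4 to 39.2 CPM, led by Cd79b at 9.12 ± 0.586 and 7.98 ± 1.71 CPM. The 10 myeloid markers summed to 37.1 to 76.8 and 43.1 to 119 CPM, led by Lyz2, and the 8 CD8 T and NK cell markers to 34.8 to 38.5 and 31.2 to 37.2 CPM, led by Cd8b1. The 7 of 8 erythroid markers in the table summed to 0.277 to 5.80 CPM in 5 libraries and to 199 CPM in cKO1, led by Hba-a1. Against these, the 6 Treg markers summed to 3239 to 3843 CPM in WT and 2911 to 3290 CPM in cKO, led by Ctla4. By gene, 3 of them had a log2 fold change above 0 and 3 below. The 4 of 5 T cell markers in the table, led by Cd4, summed to 2413 to 2619 and 2046 to 2134 CPM, a sum lower in every cKO library. The 4 genes did not share one course: 1 had a log2 fold change above 0, and only 1 had all cKO libraries below all WT libraries. Cd4 itself overlapped between the groups (log2 fold change -0.11). The part of these differences in the values of the TGF-beta genes was not tested. In bulk RNA, fewer cells of a type and less RNA per cell cannot be told apart.

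The receptor gene Tgfbr2 had the largest fitted difference of the 10 genes, and it did not pass the test. Tgfbr2 (Entrez 21813, chromosome 9, 116087695 to 116175363), which encodes the ligand-binding type II receptor, stood at 250.0, 253 and 253 CPM in WT and at 346, 261 and 284 CPM in cKO. The 3 WT libraries were nearly equal, and every cKO library lay above them. The coefficient of variation over the WT libraries was 0.705%, at the 0.566th percentile of the genes tested, whose median was 10.8%. The means were 252 ± 1.78 and 297 ± 43.5 CPM (SD, n = 3; log2 fold change 0.24 ± 0.11 SE, 95% interval -0.02 to 0.49; edgeR adjusted p = 0.695). Among all genes tested, 6.10% had all cKO libraries above all WT libraries and 14.2% had groups that did not overlap in either direction, so 1 such gene in 10 is near the background. The cKO mean leaned on cKO1, and without that library the log2 fold change was 0.12 (adjusted p = 0.898).

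Tgfbr1 (Entrez 21812, chromosome 4, 47353222 to 47414926), the type I receptor kinase, stood at 127, 126 and 123 CPM in WT and at 137, 96.0 and 115 CPM in cKO. Its WT libraries were again close together, at a coefficient of variation of 1.47% (2.22nd percentile of the genes tested). The cKO libraries lay on both sides of the WT libraries, with cKO1 highest and cKO2 lowest. The log2 fold change was -0.11 ± 0.13 (SE; 95% interval -0.41 to 0.18; edgeR adjusted p = 0.927), and it was 0.004 without cKO2. Set against each other within a library, the FPKM ratio of Tgfbr2 to Tgfbr1 was 2.36, 2.41 and 2.46 in WT and 3.04, 3.27 and 2.95 in cKO. Every cKO library lay above every WT library, and the log2 difference stayed between 0.31 and 0.39 when any 1 library was left out. The exact two-sided permutation p was 0.1, the smallest that 3 libraries against 3 can give, and 0.5 after adjustment over the 5 ratios computed. For the other ratios, Tgfb1 to Lrrc32, Smad2 to Smad3, Smad7 to Smad3 and Skil to Ski, the groups overlapped (exact permutation p = 0.4 to 1).

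**Figure D3:**
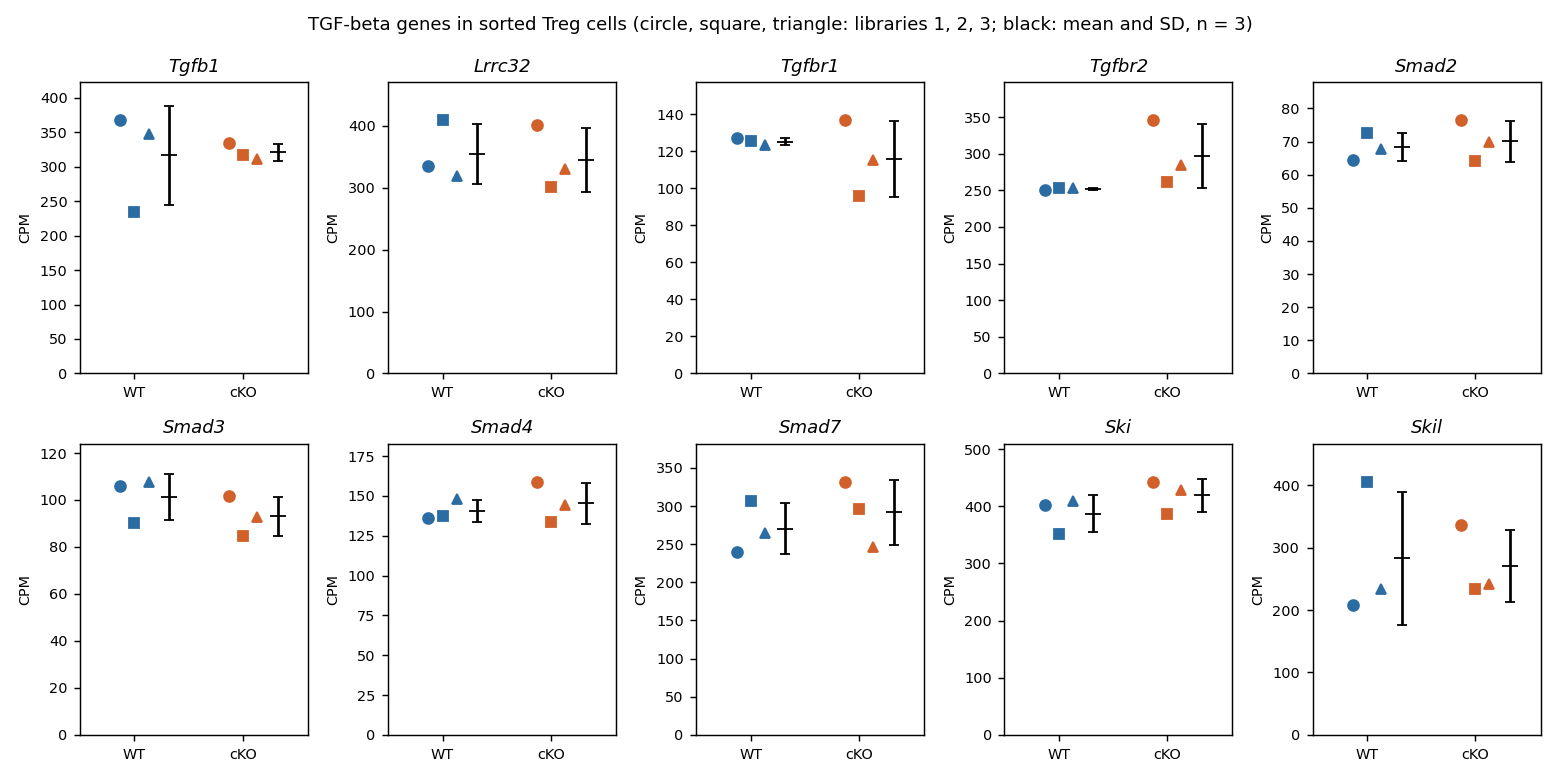
CPM of each gene in the 6 libraries, with axes from 0. Points are libraries 1 (circle), 2 (square) and 3 (triangle) of WT (blue) and cKO (orange), and black marks give the mean and SD (n = 3). Only for Tgfbr2 do all cKO points lie above all WT points, and for Skil the WT2 library (406 CPM) stands far above WT1 and WT3.

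The SMADs that carry the signal overlapped between the groups and did not pass the test. Smad2 (Entrez 17126, chromosome 18, 76241090 to 76311748) stood at 64.5, 72.7 and 67.6 CPM in WT and at 76.4, 64.1 and 69.7 CPM in cKO. Its groups covered almost the same range, with cKO1 and WT2 highest (log2 fold change 0.04, 95% interval -0.17 to 0.25). Smad3 (Entrez 17127, chromosome 9, 63646766 to 63757994) stood at 106, 90.2 and 108 CPM in WT and at 102, 84.7 and 92.7 CPM in cKO. WT1 and WT3 were the highest libraries and cKO2 the lowest, and the groups overlapped through WT2 (log2 fold change -0.12 ± 0.10 SE, 95% interval -0.36 to 0.12; edgeR adjusted p = 0.890). Without WT2 and cKO1 the log2 fold change of Smad3 was -0.27 ± 0.07 (SE; adjusted p = 0.225), larger than with all libraries and still not called. Smad4 (Entrez 17128, chromosome 18, 73634790 to 73703791), the partner of both, stood at 136, 138 and 148 CPM in WT and at 159, 133 and 144 CPM in cKO. The highest and the lowest of its 6 libraries were both cKO (log2 fold change 0.05, 95% interval -0.16 to 0.25).

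Smad7 and Skil, which the pathway itself is known to induce, were highest in WT2 and cKO1. Smad7 (Entrez 17131, chromosome 18, 75367365 to 75395935), which blocks the type I receptor, stood at 240.1, 307 and 265 CPM in WT and at 332, 297 and 246 CPM in cKO. The groups overlapped over most of their range (log2 fold change 0.11 ± 0.14 SE, 95% interval -0.21 to 0.43; edgeR adjusted p = 0.941). The log2 fold change of Smad7 ran from 0.0058 without cKO1 to 0.22 without cKO3, and was 0.21 without WT2 and 0.03 without WT1. Skil (Entrez 20482, chromosome 3, 31095058 to 31122923), which encodes the SMAD corepressor SnoN, stood at 209, 406 and 234 CPM in WT and at 337, 234 and 242 CPM in cKO. It had the widest spread of the 10 genes, with a coefficient of variation of 37.9% over the WT libraries, at the 91.3rd percentile of the genes tested. The log2 fold change was -0.06 ± 0.27 (SE; edgeR adjusted p = 0.992), 0.29 without WT2 and 0.10 ± 0.07 (SE) without WT2 and cKO1. Its paralog Ski (Entrez 20481, chromosome 4, 155154075 to 155222535) did not share that course, at 402, 351 and 409 CPM in WT and at 443, 387 and 428 CPM in cKO. For Ski, WT2 was the lowest of all 6 libraries and cKO1 the highest (log2 fold change 0.12 ± 0.09 SE, 95% interval -0.10 to 0.33; edgeR adjusted p = 0.887). The Skil to Ski FPKM ratio was 0.980 in WT2, 0.614 in cKO1 and 0.427 to 0.486 in the other 4 libraries.

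WT2 and cKO1 were the 2 highest of the 6 libraries for 4 of the 10 genes, which were Lrrc32, Smad2, Smad7 and Skil, and for none of the 10 were they the 2 lowest. Among the other pathway genes described below, they were the 2 highest for 16 of 52 (30.8%) and the 2 lowest for 3 (5.77%), beside 15.5% and 14.1% of all genes tested. From those 16, 4 genes are given here, named after their values were seen. Only the pathway lists were read for such genes. Tgif1, a SMAD corepressor, stood at 122, 268 and 116 CPM in WT and at 218, 109.7 and 70.2 CPM in cKO. Its paralog Tgif2 stood at 108 CPM in WT2 and 91.9 CPM in cKO1, against 40.2 to 52.9 CPM elsewhere. Nrros, which encodes a relative of GARP that carries latent TGF-beta on myeloid cells, stood at 418 CPM in WT2 and 349 CPM in cKO1, against 163 to 234 CPM elsewhere. The decoy receptor Bambi was low, at 15.7 and 15.9 CPM in those libraries and 6.91 to 10.7 CPM elsewhere. The myeloid marker sum was 76.8 CPM in WT2 and 77.4 CPM in cKO1, between the 119 CPM of cKO2 and the 37.1 to 43.1 CPM of the other 3, and its part in the Nrros values was not tested. Tgfb1 went the other way from Skil in WT2 but not in cKO1, where it lay near the mean of the 6 libraries.

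**Figure D4:**
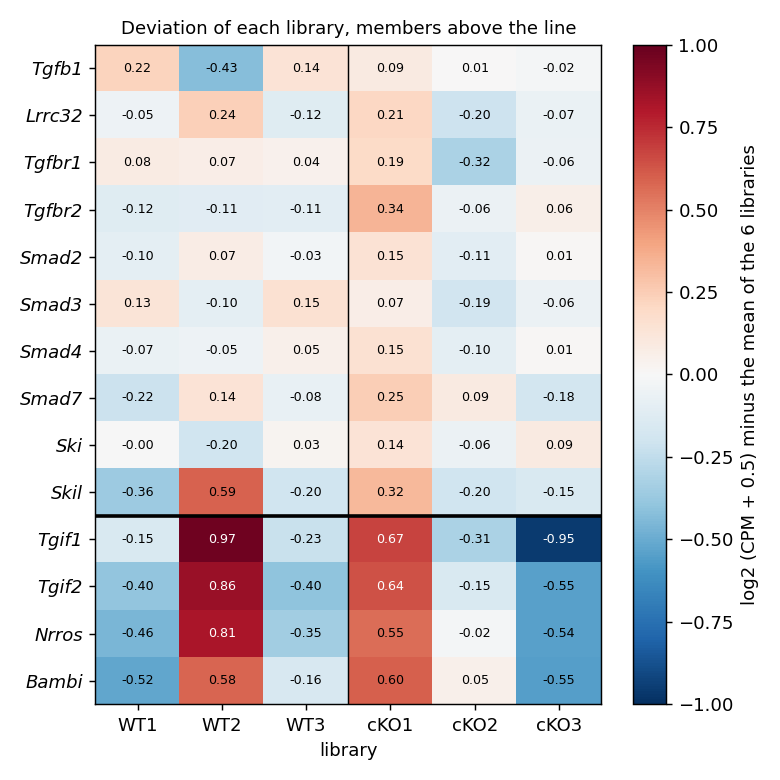
Each cell gives log2 of CPM + 0.5 in a library minus the mean over the 6 libraries, for the 10 genes above the line and for Tgif1, Tgif2, Nrros and Bambi, chosen after their values were seen, below it (red for higher, blue for lower). Skil and the 4 genes below the line are red in WT2 and cKO1, while Tgfb1 is blue in WT2 at -0.43 and Ski at -0.20.

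By the likeness of their pattern, measured as Pearson's r of log2 CPM over the 6 libraries among 8754 genes with a mean of at least 10 CPM, the genes nearest to Tgfb1 were Sf3b4, Rac2 and Afg3l1 (r = 0.999, 0.998 and 0.997). Those nearest to Lrrc32 were Ramac, Ireb2 and Bnip3l (r = 0.996, 0.989 and 0.989). With 6 points high values are common: 360 genes had r above 0.9 with Tgfb1 and 276 with Lrrc32.

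Other genes of the pathway gave no call either. Of 61 listed, 52 were tested and 0 were called by edgeR, with 6 at an unadjusted p under 0.05 (7.69% over all genes), and DESeq2 also called 0, with 5 at an unadjusted p under 0.05 (6.55% over all genes). The median log2 fold change was 0.03, and the groups did not overlap for 8 (4 higher and 4 lower in cKO), beside 14.2% over all genes.

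Among genes of ligand storage and activation, 8 of 12 were tested, with a median of -0.11 and 7 values below 0. Itgb8, the integrin chain that Treg cells use to free TGF-beta from GARP, stood at 31.7, 35.5 and 31.6 CPM in WT and at 28.0, 22.3 and 28.4 CPM in cKO. The cKO libraries all lay below the WT libraries (log2 fold change -0.33 ± 0.11 SE, edgeR adjusted p = 0.511), and 8.12% of all genes tested were so ordered. Ltbp1, a latent TGF-beta binding protein, was low in both groups at 1.34 ± 0.197 and 2.08 ± 0.529 CPM (SD, n = 3; adjusted p = 0.684). Furin, the protease that cleaves the TGF-beta1 precursor, stood at 118 ± 4.19 and 105 ± 8.43 CPM (SD, n = 3; log2 fold change -0.16 ± 0.08 SE, edgeR adjusted p = 0.751). Tgfb2, Ltbp2 and Ltbp3 did not pass the low-count filter, and Itgb6 was not analysed here.

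The other receptors of the superfamily, 10 of 11 tested, had a median of 0.22 with 6 values above 0, and were mostly low. Bmpr1a, a type I receptor for bone morphogenetic proteins, stood at 5.82, 5.86 and 5.24 CPM in WT and at 2.85, 3.98 and 3.56 CPM in cKO. All cKO libraries lay below the WT libraries (log2 fold change -0.70 ± 0.19 SE, edgeR adjusted p = 0.321). Acvrl1, another type I receptor, had the opposite order at 7.68 ± 1.03 and 10.9 ± 1.39 CPM (SD, n = 3; log2 fold change 0.51 ± 0.16 SE, edgeR adjusted p = 0.447). Acvr2a, an activin type II receptor, stood at 17.8 ± 3.26 and 13.6 ± 0.660 CPM (SD, n = 3; log2 fold change -0.39 ± 0.14 SE, edgeR adjusted p = 0.540). Bmpr1b was not analysed here.

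Among the other SMADs and modulators, 16 of 19 were tested, with a median of 0.06. Nedd4l, a ubiquitin ligase that marks activated SMAD2 and SMAD3 for degradation, stood at 25.5, 24.2 and 26.4 CPM in WT and at 31.3, 31.0 and 34.9 CPM in cKO. All cKO libraries lay above the WT libraries, and the fit gave the lowest p of the 52 genes (log2 fold change 0.35 ± 0.08 SE, edgeR adjusted p = 0.244). The ubiquitin ligase Stub1 (0.25) and Ldlrad4 (-0.14), which sequesters receptor-activated SMADs, followed by p. Smad6, Smad9 and Cd109 did not pass the filter. In the nuclear list, 11 of 12 were tested, with a median of 0.04 and the lowest p for Foxh1 (0.56), Hdac1 (-0.10) and Ncor1 (0.07), by log2 fold change. Foxh1 was at most 1.11 CPM in a library, and Dach1 did not pass the filter. In the SMAD-independent arm all 7 were tested, with a median of 0.06 and the lowest p for Tab3 (-0.17), Tab2 (-0.08) and Daxx (0.17).

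**Figure D5:**
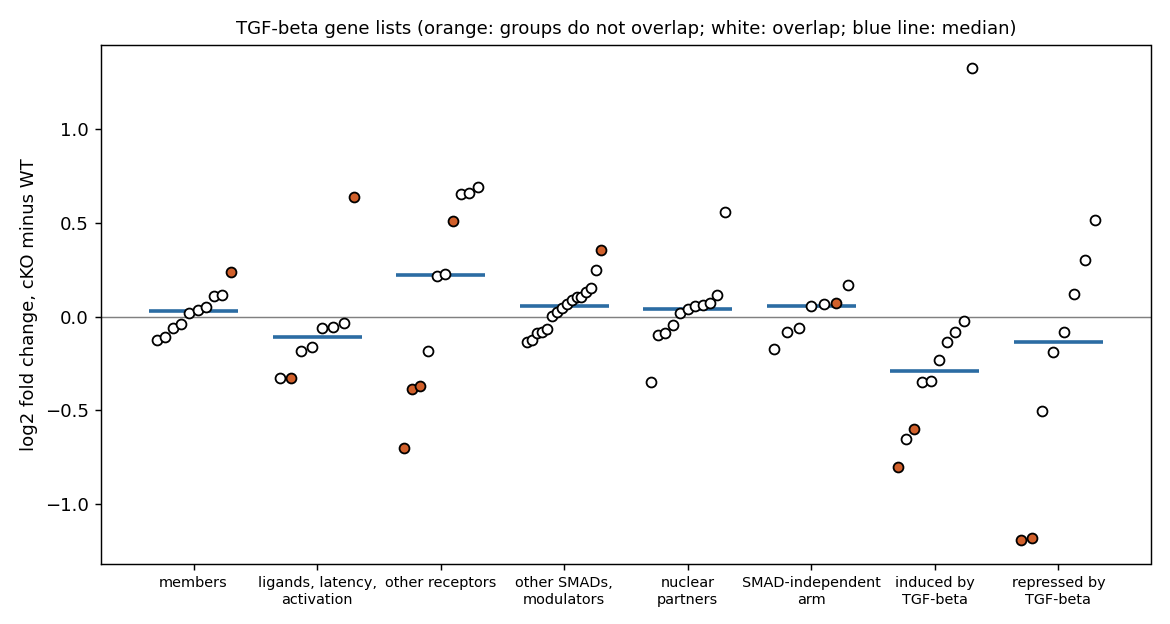
Log2 fold change, cKO minus WT, of the 10 genes and of the tested genes of 7 further lists, with 1 point a gene (orange where the groups do not overlap) and a blue line at each list's median. The medians of the first 6 columns lie between -0.11 and 0.22. The genes known to be induced by TGF-beta have a median of -0.29, and those known to be repressed by it a median of -0.14. Pmepa1, Ldlrad4 and Tgif1 appear in more than 1 column.

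Genes that respond to TGF-beta were read as well, since the RNA of the pathway's parts does not measure its activity. Of 10 tested genes known to be induced by TGF-beta, 9 had a log2 fold change below 0, as did 6261 of all 12887 genes tested. The median of this list was -0.29, beside 0.004 over all genes, and its values ran from -0.80 to 1.32. Pmepa1, Ldlrad4 and Tgif1 were also in the pathway lists above. The list was chosen with earlier results of these data known. Itgae, the CD103 integrin chain, stood at 101, 63.4 and 118 CPM in WT and at 56.3, 47.5 and 57.7 CPM in cKO. The cKO libraries all lay below the WT libraries, of which WT2 was the lowest (log2 fold change -0.80 ± 0.21 SE, edgeR adjusted p = 0.316). Ccr6, a chemokine receptor of Th17 and some Treg cells, stood at 24.2 ± 3.39 and 19.0 ± 2.67 CPM (SD, n = 3; edgeR adjusted p = 0.637). Of 2 known feedback targets, Pmepa1, named after its values were seen, had a log2 fold change of -0.08 and Ldlrad4 of -0.14. Without WT2 and cKO1 that of Pmepa1 was -0.27 ± 0.06 (SE; edgeR adjusted p = 0.205) and that of Ldlrad4 -0.15 ± 0.06 (SE; edgeR adjusted p = 0.454). Without WT2 alone that of Ldlrad4 was -0.21. Neither gene was called in these fits. Cdkn2b did not pass the filter.

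Of 8 tested genes known to be repressed by TGF-beta, 5 had a log2 fold change below 0 and 3 above, with a median of -0.14. Gzmb, which encodes granzyme B, stood at 12.1, 8.91 and 9.57 CPM in WT and at 3.49, 5.23 and 4.73 CPM in cKO. The cKO libraries all lay below the WT libraries (log2 fold change -1.18 ± 0.20 SE, edgeR adjusted p = 0.0983). The cytokine gene Ifng stood at 12.6, 18.2 and 11.0 CPM in WT and at 4.54, 7.69 and 6.02 CPM in cKO, also without overlap (log2 fold change -1.19 ± 0.25 SE, edgeR adjusted p = 0.179). The perforin gene Prf1 overlapped between groups (log2 fold change 0.52 ± 0.28 SE), and Il2 did not pass the filter. Over both response lists, edgeR called 0 of 18 genes, with 5 at an unadjusted p under 0.05 (7.69% over all genes). DESeq2 called 4, all lower in cKO, with Itgae, Gzmb and Ifng among them, and over all genes it called 177 (1.37%), of which 153 were lower (1.19% of all genes). Without WT2, edgeR called 2, with Itgae among them (adjusted p = 0.0408), and the same 2 without WT2 and cKO1, beside 0.229% and 0.550% of all genes tested. Members of both lists were known from earlier results of these data to be lower in cKO cells, so the counts are a description.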

How the data were processed

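The values are the estimated counts per gene and library that the authors deposited, which are not normalized, and a second set of deposited columns that behave as FPKM, which the values show to be scaled by gene length and depth, by the authors. Per the submitters' processing notes, the tools were DESeq2 1.16.1, featureCounts 1.5.0-p3 and HISAT2 2.0.5 on mm10, with no role given. In each library 45.4% to 46.3% of the counts are not whole to within 0.01, for a reason not given in the sources used here. No exon of another gene overlapped those of the 10 genes in GENCODE M21.

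Counts were rounded and tested in R 4.3.3 with edgeR 4.0.16: filterByExpr (minimum count 10), TMM scaling, the quasi-likelihood F test with group as the only term, and Benjamini-Hochberg adjustment over 12887 genes, two-sided. The common biological coefficient of variation was 16.7%. Standard errors come from the F statistic. Groups follow the sample titles. The alternatives used DESeq2 1.42.0, limma 3.58.1 (voom), other scalings and filters, a replicate block and fewer libraries. The code was tested on simulated data.

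The 10 genes and all lists were chosen with earlier results of these data known. Named from each list were called genes, otherwise the 3 with the lowest p, and the most abundant marker of each other cell type. Some genes of these lists enter the counts and medians but are not reported here by name.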

Additional observations from a re-analysis of the deposited data

How the results depend on the processing

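The count of 0 called among the 10 genes held in all 17 alternatives, as did 0 among the 52 other pathway genes. Without WT2 and cKO1, edgeR's unadjusted p was under 0.05 for 3 of the 10. It was so for 13 other pathway genes and for 1475 of the 12917 genes tested, against 991 of 12887 with all libraries. Those 3 were Tgfb1 (95% interval -0.32 to -0.05), Smad3 (-0.43 to -0.11) and Tgfbr1 (log2 fold change -0.25, interval -0.48 to -0.02). WT2 and cKO1 were singled out by their values in these same data. Leaving them out narrows the spread by choice, so these intervals and p-values may be too small. Response genes called numbered 4 with DESeq2, 2 without WT2 and cKO1 together, and 0 to 2 with 1 library left out. Over all genes tested 27 were called, against 177 with DESeq2, 43 with no low-count filter, 48 with robust empirical Bayes, 0 with the replicate block (811 at an unadjusted p under 0.05), 71 without WT2 and cKO1, and 0 to 30 with 1 library left out, 0 in each case but WT2; the cause was not tested. Deviations of same-numbered libraries correlated at -0.34, 0.05 and 0.31, and only WT3 and cKO3 correlated best with their own number. With 3 libraries a group, these values cannot decide if the replicate numbers pair the samples. Under the block 0 of the 10 genes were called. Without WT2 and cKO1 the log2 fold change turned to -0.19 for Tgfb1, -0.034 for Smad4, 0.10 for Skil, -0.17 for Foxp3 and -0.024 for Il2ra, and the log2 ratio turned to -0.13 for Tgfb1 to Lrrc32 and 0.073 for Skil to Ski. With 1 library left out, the log2 fold change ran from -0.16 to 0.14 for Tgfb1, -0.16 to 0.075 for Lrrc32, -0.25 to 0.0039 for Tgfbr1, -0.029 to 0.094 for Smad2, -0.019 to 0.10 for Smad4, 0.0058 to 0.22 for Smad7, -0.20 to -0.065 for Smad3, 0.048 to 0.17 for Ski, 0.12 to 0.32 for Tgfbr2, -0.25 to 0.29 for Skil, -0.11 to 0.16 for Foxp3 and -0.11 to 0.092 for Il2ra, and the log2 ratio (left-out libraries for the ratios were added after the data were seen) from -0.22 to 0.25 for Tgfb1 to Lrrc32 and -0.40 to 0.20 for Skil to Ski. No scaling moved the median of all genes by more than 0.009.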
